A study of Rattus norvegicus with 12 samples.

Results

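The 67 genes described here had lower mRNA and lower protein in the lungs of silica-exposed rats than in those of saline controls. They were chosen by measured values. A gene qualified when its mean log2 signal over 3 silica arrays lay below that over 3 saline arrays on day 28, and when its protein values in lungs of the same study, read from the published supplement for their sign alone, also lay below those of saline. Gene names came from the part of the published probe list that could be read, which names 1099 genes, and 167 of these also had a protein row. Both published lists hold only genes or proteins that the study had called different by fold and p. The protein list has 650 rows, and a gene without a row may have been measured and not called. Of the 167, 67 were kept, 22 were lower in both but were set aside because of their family or name, 77 were higher in both, and 1 had opposite signs. Since both lists were cut beforehand, this split does not measure how often mRNA and protein change alike. The protein values are not printed.

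Male Wistar rats received 1 mL of silicon dioxide at 50 mg/mL into the trachea, or 1 mL of saline, and RNA from the lung of each rat was read on its own one-colour Agilent array. The labels also give the doses as 50 mg/kg and 0 mg/kg. There were 4 groups of 3 rats, namely silica on day 28, saline on day 28, silica on day 14 and saline on day 14. The titles and time point of the day 14 arrays say 14 days, whereas the protocol text, shared by all arrays, says 28 days, and the study describes only day 28, for which lungs were selected on their histology. The tissue is whole lung, so fewer cells of a type and less RNA per cell cannot be told apart in any value below. All 6 arrays of day 14 lay on 1 slide, together with saline rats 2 and 3 of day 28. The 3 silica arrays of day 28 and saline rat 1 of day 28 lay on the other slide, so that slide and day cannot be told apart for silica. Between 60.46% and 69.52% of 51255 probes per array were well above background and none was saturated. Defining markers of lung cells, such as Aqp5 of alveolar type 1 cells and Cdh5 of endothelium, were well above background on all 12 arrays.

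Much of the lung is a thin barrier between air and blood, built of flat alveolar cells and capillary endothelium. Endothelial cells are rich in caveolae, flask-shaped pits of the plasma membrane that are formed by caveolins. Neighbouring cells are held together by tight junctions and desmosomes, whose proteins are tied to actin and spectrin inside the cell. Inhaled silica particles are taken up by macrophages and cause lasting inflammation, nodules and scarring, the disease called silicosis.

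Promoter windows are shown for Cav1 and Cav2, which encode the 2 caveolins among the members and lie side by side on chromosome 4, and for Ndrg2 and Reck, which were among the members with the smallest p on day 14. Each line gives the 250 bases before the RefSeq gene start, 5′ to 3′ on the strand of the gene, in the GRCr8 build. Capitals mark a match, on either strand, to TATAAA (the TATA box), to GGGCGG (the core of the GC box) or to TGANTCA.
Cav1, chr4:46606288-46606537, + strand: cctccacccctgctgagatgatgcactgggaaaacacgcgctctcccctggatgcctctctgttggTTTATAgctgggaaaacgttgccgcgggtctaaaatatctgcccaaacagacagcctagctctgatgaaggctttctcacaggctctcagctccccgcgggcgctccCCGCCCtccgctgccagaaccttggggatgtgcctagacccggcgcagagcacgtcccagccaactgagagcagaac
Cav2, chr4:46582431-46582680, + strand: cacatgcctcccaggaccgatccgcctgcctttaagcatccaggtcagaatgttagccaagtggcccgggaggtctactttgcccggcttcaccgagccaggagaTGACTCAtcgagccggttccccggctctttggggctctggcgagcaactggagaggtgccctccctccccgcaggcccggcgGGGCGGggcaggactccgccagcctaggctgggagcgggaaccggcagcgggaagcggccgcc
Reck, chr5:62898467-62898716, + strand: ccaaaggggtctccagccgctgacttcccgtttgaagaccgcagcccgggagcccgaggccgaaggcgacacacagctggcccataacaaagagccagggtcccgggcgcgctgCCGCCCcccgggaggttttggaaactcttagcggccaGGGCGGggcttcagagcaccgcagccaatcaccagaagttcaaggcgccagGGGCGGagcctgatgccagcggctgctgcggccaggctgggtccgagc
Ndrg2, chr15:27083121-27083370, - strand: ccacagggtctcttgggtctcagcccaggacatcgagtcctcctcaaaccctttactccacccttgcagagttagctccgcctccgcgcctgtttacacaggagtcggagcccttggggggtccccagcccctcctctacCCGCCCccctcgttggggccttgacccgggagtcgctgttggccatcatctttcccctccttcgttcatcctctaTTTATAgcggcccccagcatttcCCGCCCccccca

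The starts of Cav2 and Cav1 were 23857 bases apart on the same strand. Both windows held GGGCGG, and so did those of Reck and Ndrg2. Cav1 and Ndrg2 also held TATAAA, while Cav2 also held TGANTCA. No marked match overlapped another.

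Of the 67 members, 48 matched a RefSeq promoter. Among those not matched were Cadm1, Cryab, Esam, Fermt2, Higd1b, Hspa12a, Icam2, Lmod1, Mprip, Ncald, Pdlim3, Ramp2, Selenbp1, Susd2, Tagln, Tns1, Tppp3 and Vwf. GGGCGG was present in 33 of the 48 windows (68.8%), against 8892 of 27457 windows of the same length over all genes (32.4%). The windows differed in base composition too, with a median G and C content of 63% for members and 52% for all. Other motifs, searched on both strands, were less frequent. TATAAA was present in 5 member windows (10.4%, against 13.1% of all), CCGGAA in 4 (8.33%, against 13.4%), TGANTCA in 2 (4.17%, against 6.36%), CACGTG in 1 (2.08%, against 5.79%) and the CArG box of smooth muscle promoters in 2 (4.17%, against 1.5%). The 2 windows with a CArG box were those of Nebl and Ppbp. These matches describe letters in a window, and no binding was measured.

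On day 28, the contrast that chose the genes, silica lay below saline by a median of 1.33 on the log2 scale, and the differences ran from -2.16 for Sec14l3 to -1.03 for Gsta4. These values describe the choice and carry no test. The members just inside the rule were Gsta4 at -1.03, Nebl at -1.03 and Mprip at -1.05. On the other side of 0, the nearest named genes with a protein row were Psap at 1.02, Creld2 at 1.04 and Cygb at 1.04. The gap around 0 comes from the published list, which was cut at a fold of 2 on day 28. All 3 silica arrays lay below all 3 saline arrays for 67 of 67 members on day 28, as they did for 24.2% of all 32097 probes above background. Set against the saline array on their own slide alone, the silica arrays gave a median of -1.28 and again 67 of 67 differences below 0.

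Day 14 was not used to choose the genes, and silica was tested against saline there with limma over all 33616 probes above background. Of the 67 members, 36 were lower with silica at an adjusted p not above 0.05 and 0 were higher, where 4.8% of all probes tested were lower. With a fold of at least 2 as well, 30 were lower, against 2.34% of all probes. These 30 include Myo6, whose silica signal was not well above background, so that its fold has only a bound, at least 1.75. The difference was below 0 for 66 of 67 members, with a median of -1.07 where that of all probes was -0.01. All 67 members passed the filter on dim probes. The signal of 64 cleared background in every rat of day 14, while Myo6, Gnao1 and Vsnl1 passed through the saline group alone. All 3 silica arrays lay below all 3 saline arrays for 61 members, that is 91% of them, against 18.9% of all probes. The counts by role below stand beside these shares of members and of all probes. Members were brighter than the probes tested, with a median signal over the 12 arrays of 9.82 against 6.92. The shares of all probes are therefore not matched for signal. With 3 rats a group an exact permutation test of a single gene cannot go below 0.10, so every p given is from the limma model.

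Leaving out single arrays moved the number of calls more than the size of the differences. Without saline rat 1, 2 or 3 of day 14 in turn, 2 members remained called, Myo6 and Ndrg2 each time. The call of Myo6 rests on silica values not well above background. The median difference of the members stayed between -1.03 and -1.17. Without silica rat 3 of day 14, 9 were called, with a median of -1.19. Without silica rat 1 of day 14, 37 were called, 32 of them among the 36, but those with a fold of at least 2 dropped to 16 and the median was -0.79. When dim probes were kept in the fit, 3 members were called, Gsta4, Myo6 and Ndrg2, with the same median.

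Silica rat 1 had the lowest signal of its group for 64 of 67 members on day 14. Relative to the mean of the 3 saline arrays, the median member was at -1.68 in that rat, -0.75 in silica rat 2 and -0.87 in silica rat 3. The saline rats were at 0.06, -0.15 and 0.07. On day 28 the medians were -1.80, -1.16 and -1.03 in silica rats 1, 2 and 3, and silica rat 1 of that day again had the lowest signal for 64 of 67 members. Each group had its own rats, so that the shared number is only a name. Correlations over all probes of silica rat 1 of day 14 with the others of its group were 0.971 and 0.973, against 0.981 between those others. The plot of 66 members by array shows this darker column on both days. The 3 exceptions of day 14 were Ctla2a, Sptb and Myo6, the last not well above background in silica.

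**Figure D1:**
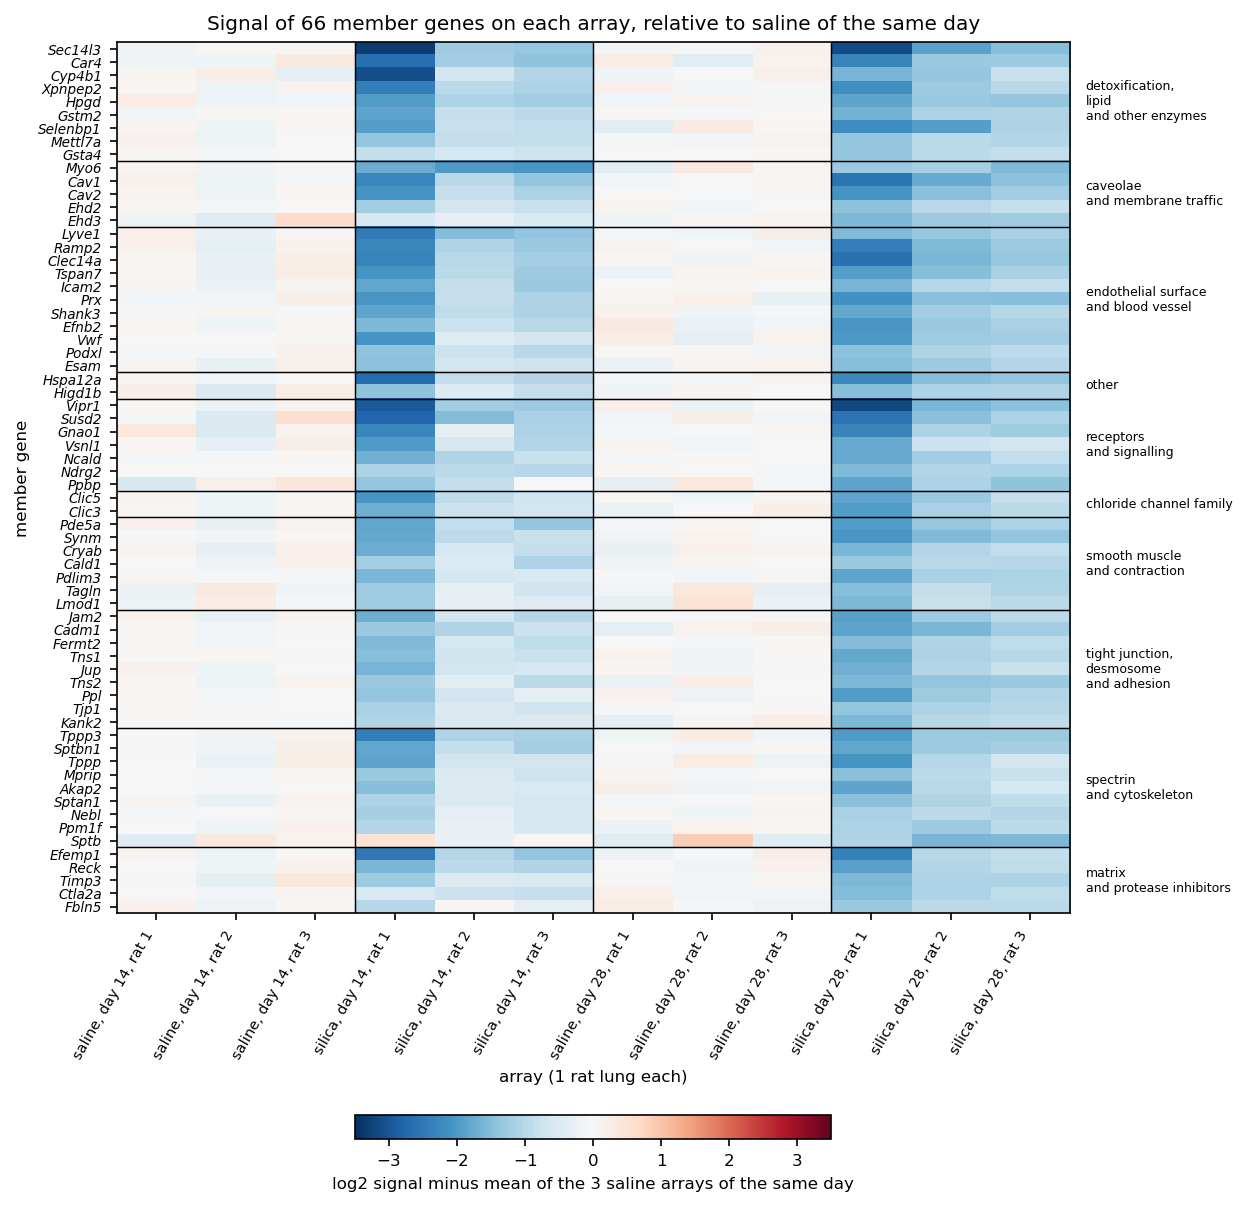
Log2 signal of 66 of the 67 genes (rows, grouped by role) on each of the 12 arrays (columns), minus the mean of the 3 saline arrays of the same day; blue is below saline and red above. Silica rat 1 is the darkest column on both days, with a median over the 67 genes of -1.68 on day 14 and -1.80 on day 28.

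Silica rats also spread more than saline rats. The SD over 3 rats was larger in silica than in saline for 65 of 67 members on day 14, with a median of 0.52 against 0.16, and for 61 of 67 on day 28, with a median of 0.40 against 0.14.

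Caveolae and membrane traffic were represented by 5 members, and 4 of them fell on day 14. Among these was Myo6, whose silica signal was not well above background. Cav1 encodes the caveolin that shapes caveolae of endothelium and alveolar type 1 cells. Cav1 read 12.39, 12.04 and 12.17 on the saline arrays of day 14 and 9.93, 11.23 and 10.82 on the silica arrays, and on day 28 12.37, 12.50 and 12.55 with saline and 9.92, 10.70 and 11.04 with silica. The lowest saline array lay above the highest silica array on each day, and the day 14 fall was 1.54 ± 0.32 (SE) on the log2 scale, or 2.92 times lower (adjusted p = 0.03). Cav2, its partner in the same coat, followed the same order of silica rats. On day 14 the signals of Cav2 were 9.58, 9.26 and 9.51 with saline and 7.39, 8.64 and 8.34 with silica, and on day 28 they were 9.68, 9.67 and 9.73 and 7.60, 8.24 and 8.49. It fell by 1.33 ± 0.31 (adjusted p = 0.041), with silica rat 1 the lowest and silica rat 2 the highest of the silica arrays of day 14. No overlap between silica and saline was seen on either day.

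Ehd2, an ATPase at the neck of caveolae, had a smaller difference than the caveolins, a comparison that was not tested. The log2 signal of Ehd2 in the 3 rats of each group was 13.25, 13.12 and 13.15 (saline) and 11.97, 12.52 and 12.39 (silica) on day 14, then 13.30, 13.13 and 13.21 (saline) and 11.78, 12.24 and 12.40 (silica) on day 28. It fell by 0.88 ± 0.17 (adjusted p = 0.028) on day 14. Ehd3, a related ATPase of recycling endosomes, did not pass the test. Saline rats of day 14 gave 8.22, 7.95 and 9.04 and silica rats 7.83, 8.12 and 7.86 for Ehd3, while the values of day 28 were 9.18, 9.41 and 9.44 with saline and 7.76, 8.07 and 8.09 with silica. Silica rat 2 of day 14 lay above saline rat 2 of day 14, so the groups overlapped, and the difference was -0.47 ± 0.28 (adjusted p = 0.33). The saline arrays of day 28 were all above those of day 14 for this gene, and day 28 silica lay below them without overlap.

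Myo6, a myosin that walks towards the minus end of actin filaments and serves endocytosis, was a dim member. For Myo6, saline arrays read 4.74, 4.53 and 4.68 on day 14 and 4.31, 5.02 and 4.78 on day 28, and silica arrays 2.91, 2.66 and 2.60 and 3.40, 3.55 and 3.16. Its probe was well above background on all saline arrays and on 0 of 3 silica arrays of either day, so that the fold has only a bound, at least 1.75-fold lower on day 14 and at least 1.26-fold lower on day 28. The adjusted p was 0.0022, which rests on silica values not well above background, and the order of the silica rats has no meaning there. The measured difference was -1.93 and became -0.35 with normexp background correction.

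Endothelial surface and vessel genes were the largest role with 11 members. Of these, 9 fell on day 14, all 9 with a fold of at least 2. Silica lay below saline without overlap for 11 of 11, against 91% of all members and 18.9% of all probes. Differences in the role ran from -1.77 to -0.93 with a median of -1.31. Lyve1, a hyaluronan receptor of lymphatic and some lung capillary endothelium, had the largest difference of the role. In saline, Lyve1 was at 11, 10.58 and 10.87 on day 14 and at 11.01, 10.90 and 11.25 on day 28, and in silica at 8.37, 9.31 and 9.44 and at 9.52, 9.73 and 9.93. It fell by 1.77 ± 0.29 (adjusted p = 0.018), and its difference on day 28 was smaller, -1.33, though the days were not compared by a test. Icam2, an adhesion molecule present on resting endothelium, was called as well. Icam2 read 10.96, 10.66 and 10.94 on the saline arrays of day 14 and 9.04, 10.01 and 9.55 on the silica arrays, and on day 28 10.89, 10.95 and 10.88 with saline and 9.29, 9.92 and 10.07 with silica. It fell by 1.32 ± 0.25 (adjusted p = 0.025). The silica rats of day 14 were well separated from each other, and the saline arrays of both days lay within a narrow range.

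Podxl encodes a sialomucin of the luminal surface. On day 14 the signals of Podxl were 9.87, 9.86 and 10.09 with saline and 8.53, 9.20 and 8.97 with silica, and on day 28 they were 9.89, 9.89 and 9.75 and 8.42, 8.79 and 8.92. Its groups did not overlap on either day, and it fell by 1.03 ± 0.19 on day 14 (adjusted p = 0.025). Vwf, the clotting glycoprotein stored in endothelial granules, did not pass the test although silica lay below saline on every array. The log2 signal of Vwf in the 3 rats of each group was 11.75, 11.75 and 11.81 (saline) and 9.70, 11.31 and 11.10 (silica) on day 14, then 12.36, 11.79 and 12.27 (saline) and 10.14, 10.89 and 10.91 (silica) on day 28. Silica rat 1 of day 14 stood far below the other silica rats, and the difference was -1.07 ± 0.39 (adjusted p = 0.13). The other called members of the role were Ramp2, a subunit of adrenomedullin receptors, at -1.54, Clec14a, a lectin-like surface protein of endothelium, at -1.50, Tspan7 at -1.43, Prx at -1.31, Shank3, a scaffold protein, at -1.27, and Efnb2, the arterial ephrin, at -1.09. Esam, an adhesion molecule of endothelial junctions, was at -0.93 (adjusted p = 0.052).

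Tight junction, desmosome and adhesion genes had 10 members, and 5 fell on day 14. All 10 had silica below saline without overlap on that day, against 91% of all members and 18.9% of all probes. The median of the 10 was -0.92. Cadm1, a cell adhesion molecule of the immunoglobulin family, had the smallest p of the role. Saline rats of day 14 gave 8.98, 8.83 and 8.98 and silica rats 7.62, 7.87 and 8.18 for Cadm1, while the values of day 28 were 8.78, 9.26 and 9.33 with saline and 7.28, 7.53 and 7.91 with silica. No overlap was seen on either day, and it fell by 1.04 ± 0.17 (adjusted p = 0.018). Jam2, a junctional adhesion molecule, had the largest difference of the role. For Jam2, saline arrays read 7.60, 7.23 and 7.58 on day 14 and 7.82, 7.77 and 7.85 on day 28, and silica arrays 5.77, 6.83 and 6.46 and 5.92, 6.53 and 6.89. It fell by 1.12 ± 0.27 (adjusted p = 0.045), lowest in silica rat 1 on both days.

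Tjp1, a scaffold that links tight junctions to actin, was among the called members. In saline, Tjp1 was at 10.31, 10.24 and 10.28 on day 14 and at 10.28, 10.29 and 10.38 on day 28, and in silica at 9.14, 9.78 and 9.57 and at 8.96, 9.24 and 9.33. Tjp1 fell by 0.78 ± 0.18 (adjusted p = 0.041), and its 3 saline arrays of day 14 lay close together.

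The tensins Tns1 and Tns2 tie integrin adhesions to actin. Tns1 read 12.32, 12.38 and 12.26 on the saline arrays of day 14 and 10.82, 11.61 and 11.53 on the silica arrays, and on day 28 12.92, 12.62 and 12.77 with saline and 10.97, 11.69 and 11.79 with silica. Tns1 fell by 1.00 ± 0.22 (adjusted p = 0.036) without overlap. On day 14 the signals of Tns2 were 6.15, 5.90 and 6.21 with saline and 4.80, 5.69 and 5.13 with silica, and on day 28 they were 6.30, 6.77 and 6.56 and 4.98, 5.17 and 5.25. Tns2 was at -0.88 ± 0.24 (adjusted p = 0.059), also without overlap. Fermt2, a kindlin that activates integrins, fell by 1.02 (adjusted p = 0.042). Jup, the plakoglobin of desmosomes and adherens junctions, was at -0.96, Ppl, the desmosomal periplakin, at -0.80, and Kank2, an adaptor between adhesions and microtubules, at -0.70, none of them past the test.

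Spectrin and other cytoskeletal genes had 9 members, of which 2 fell on day 14. Sptbn1, the non-erythroid beta spectrin of the membrane skeleton, was one of them. The log2 signal of Sptbn1 in the 3 rats of each group was 13.02, 12.92 and 13.28 (saline) and 11.26, 12.23 and 11.89 (silica) on day 14, then 13.24, 13.14 and 13.31 (saline) and 11.40, 11.97 and 12.07 (silica) on day 28. It fell by 1.28 ± 0.25 (adjusted p = 0.028), with no overlap on either day. Its partner Sptan1, the alpha spectrin, was at -0.72 (adjusted p = 0.063) with no overlap between groups. Tppp3, a tubulin-binding protein abundant in ciliated cells, was the other. Saline rats of day 14 gave 12.31, 12.20 and 12.46 and silica rats 9.90, 11.24 and 11.19 for Tppp3, while the values of day 28 were 11.99, 12.40 and 12.06 with saline and 10.16, 10.86 and 10.84 with silica. It fell by 1.55 ± 0.35 (adjusted p = 0.038). The related Tppp did not pass the test. For Tppp, saline arrays read 8.50, 8.24 and 8.69 on day 14 and 8.75, 9.09 and 8.65 on day 28, and silica arrays 6.64, 7.83 and 7.80 and 6.75, 7.82 and 8.15. Its difference on day 14 was -1.05 ± 0.33 (adjusted p = 0.086). Both genes were lowest in silica rat 1 on each day.

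Sptb, the beta spectrin of red blood cells, was the only member above 0 on day 14, and it is named here because of that value. In saline, Sptb was at 3.83, 4.63 and 4.42 on day 14 and at 4.72, 6.01 and 4.74 on day 28, and in silica at 4.78, 4.05 and 4.35 and at 4.08, 3.56 and 3.59. The day 14 groups overlapped, with a difference of 0.10 ± 0.26 (adjusted p = 0.85), whereas on day 28 silica lay below saline without overlap. None of its silica arrays of day 28 was well above background, which leaves a bound of at least 1.72-fold lower there, and saline rat 2 of day 28 stood above the others. The sign on day 14 was not stable, at -0.01 with another background correction and -0.13 without saline rat 1. The remaining members of the role, Akap2 (named Pakap in RefSeq), Mprip, Nebl and Ppm1f, ran from -0.84 to -0.62 on day 14 without a call.

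Smooth muscle and contractile genes had 7 members, and 3 fell on day 14. For 7 of 7 silica lay below saline without overlap, against 91% of all members and 18.9% of all probes. Pde5a, the phosphodiesterase that breaks down cyclic GMP in vascular smooth muscle, had the largest difference. Pde5a read 11.64, 11.22 and 11.60 on the saline arrays of day 14 and 9.68, 10.63 and 10.14 on the silica arrays, and on day 28 11.78, 11.92 and 11.83 with saline and 9.90, 10.51 and 10.76 with silica. It fell by 1.34 ± 0.25 (adjusted p = 0.026). Synm, the intermediate filament protein synemin, fell by 1.17 ± 0.27 (adjusted p = 0.04), and Cald1, the actin-binding caldesmon, fell by 0.92 ± 0.22 (adjusted p = 0.042). Tagln, an actin-binding protein used as a smooth muscle marker, did not pass the test. On day 14 the signals of Tagln were 11.73, 12.26 and 11.82 with saline and 10.70, 11.59 and 11.25 with silica, and on day 28 they were 11.97, 12.43 and 11.78 and 10.58, 11.22 and 11.01. Saline rat 2 was highest on each day for Tagln, and the same held for Lmod1, a nucleator of actin filaments, at -0.65 (adjusted p = 0.17). Tagln was at -0.76 ± 0.25 (adjusted p = 0.11). Pdlim3, a protein of actin anchoring sites, was at -0.91 and Cryab, a small heat shock chaperone, at -1.07.

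**Figure D2:**
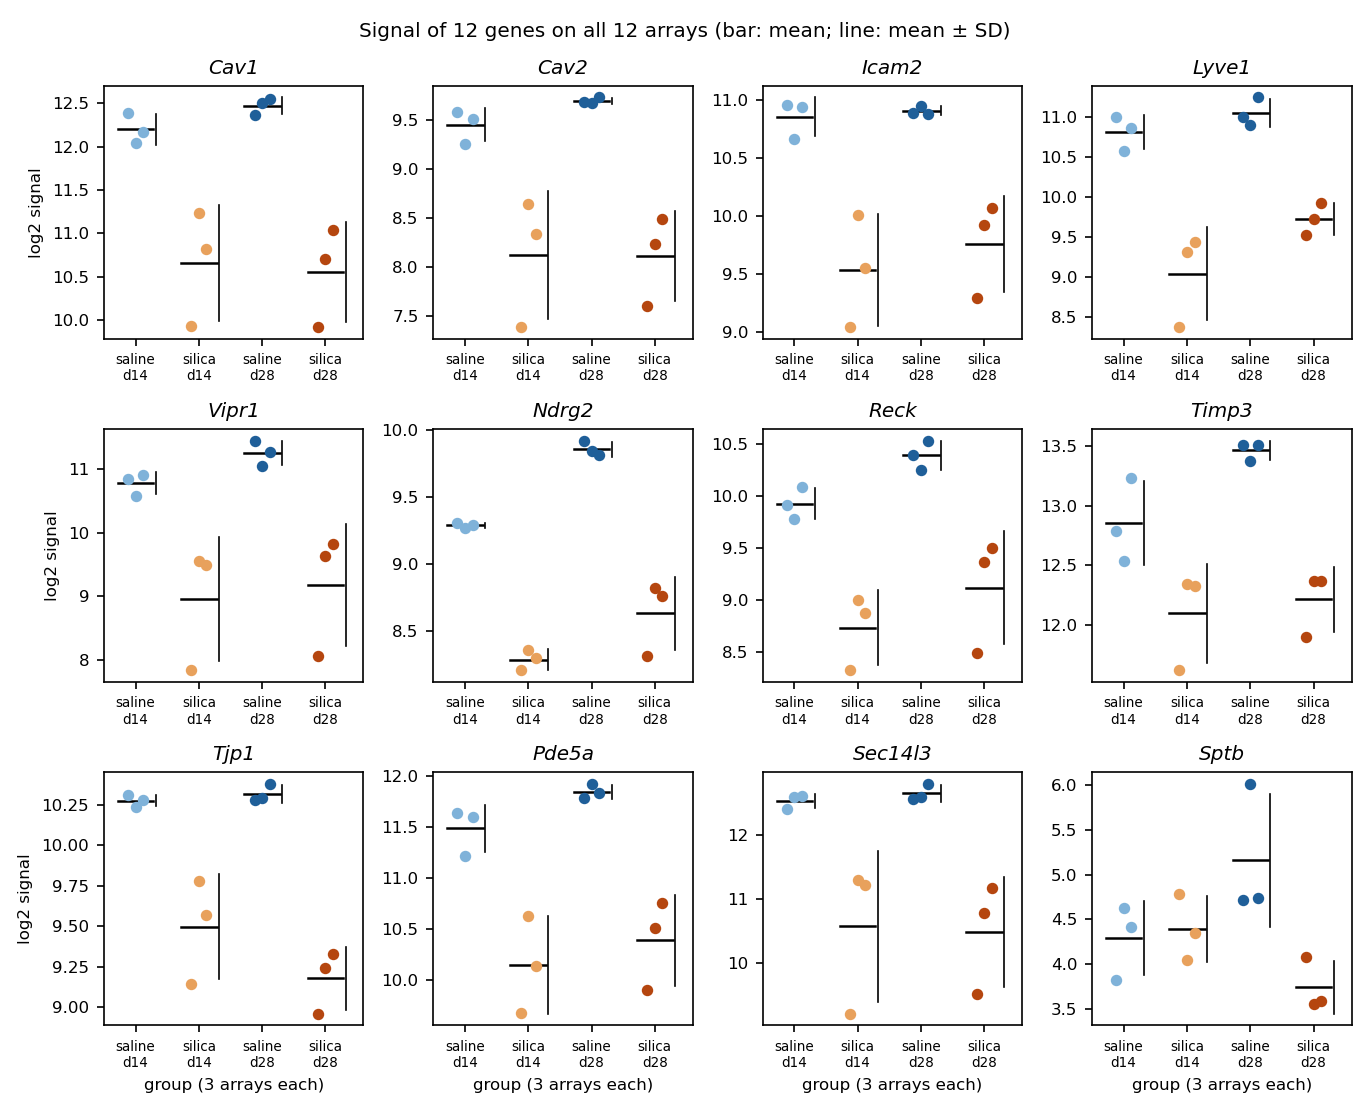
Log2 signal (vertical axis, scaled per gene) of 12 members on each array (points) in saline and silica groups of day 14 (d14) and day 28 (d28); the horizontal bar is the mean and the vertical line the mean ± SD of 3 rats. Silica lies below saline without overlap on both days for 11 of the 12 genes, and Sptb overlaps on day 14.

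Matrix proteins and protease inhibitors had 5 members, of which 3 fell on day 14. Reck, a membrane-anchored inhibitor of matrix metalloproteinases, was called as well. The log2 signal of Reck in the 3 rats of each group was 9.91, 9.78 and 10.08 (saline) and 8.32, 9.0 and 8.87 (silica) on day 14, then 10.39, 10.25 and 10.53 (saline) and 8.49, 9.36 and 9.50 (silica) on day 28. It fell by 1.19 ± 0.20 (adjusted p = 0.02). Groups did not overlap, and the 3 saline arrays of day 28 were all above those of day 14. Efemp1, the extracellular matrix protein fibulin-3, had the largest difference of the role. Saline rats of day 14 gave 10.70, 10.41 and 10.63 and silica rats 8.09, 9.56 and 9.19 for Efemp1, while the values of day 28 were 10.76, 10.91 and 11.20 with saline and 8.59, 9.95 and 10.09 with silica. It fell by 1.64 ± 0.35 (adjusted p = 0.034), with silica rat 1 more than 1 log2 unit below the other silica rats of day 14.

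Timp3, a secreted metalloproteinase inhibitor that binds to matrix, did not pass the test. For Timp3, saline arrays read 12.79, 12.54 and 13.23 on day 14 and 13.51, 13.37 and 13.51 on day 28, and silica arrays 11.62, 12.34 and 12.33 and 11.90, 12.37 and 12.37. The lowest saline array of day 14 lay just above the highest silica array, and the difference was -0.75 ± 0.26 (adjusted p = 0.11). Ctla2a, whose protein inhibits cathepsin-like proteases, fell by 0.71 ± 0.14 (adjusted p = 0.028). Fbln5, which organises elastic fibres, was at -0.43 (adjusted p = 0.35), the smallest difference after Sptb, and silica rat 2 overlapped saline.

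Receptors and signalling genes had 7 members, and 4 fell on day 14. Vipr1, the receptor for vasoactive intestinal peptide, was the member with the second largest difference on day 28. In saline, Vipr1 was at 10.84, 10.58 and 10.90 on day 14 and at 11.43, 11.05 and 11.27 on day 28, and in silica at 7.84, 9.55 and 9.49 and at 8.07, 9.64 and 9.82. On day 14 it fell by 1.81 ± 0.43, to a signal 3.51 times lower (adjusted p = 0.044), with silica rat 1 far below the other rats on both days. Ndrg2 is a member of the N-myc downstream regulated family. The probe used here was even within groups on day 14, with an SD of 0.02 in saline and 0.08 in silica. A further named probe had an SD of 0.37 in saline and 0.07 in silica. Ndrg2 read 9.31, 9.27 and 9.29 on the saline arrays of day 14 and 8.21, 8.36 and 8.30 on the silica arrays, and on day 28 9.92, 9.84 and 9.81 with saline and 8.32, 8.82 and 8.76 with silica. It fell by 1.00 ± 0.12 (adjusted p = 0.0086). Ndrg2 was called in all 16 limma settings tried, with differences from -1.13 to -0.91. Myo6 was called in the 15 in which its probe was tested, since 1 setting left it out as dim. The silica values of Myo6 were not well above background, so its repeated call adds no support.

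Of the others in that role, Susd2, a sushi-domain surface protein, fell by 1.80 ± 0.45 (adjusted p = 0.049), and Ncald, the calcium sensor neurocalcin delta, fell by 1.17 ± 0.23 (adjusted p = 0.027). Gnao1, a G protein alpha subunit, was at -1.23, and Vsnl1, another calcium sensor, at -1.19, neither past the test. Both had 1 silica array of day 14 that was not well above background. Ppbp, a chemokine of platelets, was at -0.72 (adjusted p = 0.27) with overlapping groups.

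Clic3 and Clic5, proteins of the intracellular chloride channel family, had silica below saline without overlap on both days, and neither probe used here passed the test. On day 14 the signals of Clic5 were 11.91, 11.67 and 11.90 with saline and 9.78, 10.95 and 11.13 with silica, and on day 28 they were 11.95, 11.75 and 11.98 and 10.05, 10.60 and 11.06. Clic5 had a difference of -1.21 ± 0.34 on day 14 (adjusted p = 0.066), and a further named probe of Clic5 gave -1.43 ± 0.27 (adjusted p = 0.026). The log2 signal of Clic3 in the 3 rats of each group was 10.59, 10.35 and 10.59 (saline) and 8.80, 9.76 and 9.85 (silica) on day 14, then 10.35, 10.60 and 10.78 (saline) and 8.62, 9.43 and 9.63 (silica) on day 28. The difference of Clic3 was -1.04 ± 0.28 (adjusted p = 0.06). In both, silica rat 1 was lowest on both days.

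Detoxification, lipid and other enzymes had 9 members, of which 6 fell on day 14. For 9 of 9 silica lay below saline without overlap, against 91% of all members and 18.9% of all probes. Sec14l3, a lipid-binding protein abundant in airway epithelium, had the largest difference on both days and still did not pass the test. Saline rats of day 14 gave 12.41, 12.59 and 12.61 and silica rats 9.22, 11.30 and 11.22 for Sec14l3, while the values of day 28 were 12.56, 12.60 and 12.80 with saline and 9.52, 10.78 and 11.17 with silica. Silica rat 1 of day 14 lay far below the other silica rats, and the difference was -1.96 ± 0.52 (adjusted p = 0.057). Hpgd encodes an enzyme that inactivates prostaglandins. For Hpgd, saline arrays read 8.58, 8.12 and 8.22 on day 14 and 7.67, 7.91 and 7.74 on day 28, and silica arrays 6.35, 7.24 and 7.10 and 5.94, 6.47 and 6.41. It fell by 1.41 ± 0.26 on day 14 (adjusted p = 0.023). The saline arrays of day 28 were all lower than those of day 14 for Hpgd, and so were the silica arrays of day 28 except for an overlap with silica rat 1 of day 14.

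The glutathione transferases Gsta4 and Gstm2, which conjugate reactive compounds to glutathione, both fell. In saline, Gsta4 was at 10.24, 10.12 and 10.21 on day 14 and at 10.28, 10.30 and 10.34 on day 28, and in silica at 9.36, 9.58 and 9.46 and at 8.96, 9.40 and 9.48. Gsta4 fell by 0.72 ± 0.13 (adjusted p = 0.023), and the spread of the probe used was small in both groups of day 14. A further named probe of Gsta4 had an SD of 0.23 in saline and 0.54 in silica. Gstm2 read 10.36, 10.50 and 10.53 on the saline arrays of day 14 and 8.61, 9.67 and 9.55 on the silica arrays, and on day 28 10.78, 10.69 and 10.72 with saline and 9.08, 9.62 and 9.68 with silica. Gstm2 fell by 1.19 ± 0.28 (adjusted p = 0.041), lowest in silica rat 1 on both days. Mettl7a, a methyltransferase-like protein of lipid droplets, was also called. On day 14 the signals of Mettl7a were 11.62, 11.29 and 11.46 with saline and 10.08, 10.62 and 10.63 with silica, and on day 28 they were 11.50, 11.43 and 11.67 and 10.19, 10.58 and 10.51. It fell by 1.01 ± 0.19 (adjusted p = 0.026). Car4, the carbonic anhydrase anchored on lung capillaries, fell by 1.76 ± 0.37 (adjusted p = 0.031). Xpnpep2, a membrane aminopeptidase, fell by 1.48 ± 0.36 (adjusted p = 0.047). Cyp4b1, a cytochrome P450 of lung, was at -1.58 (adjusted p = 0.13), with silica rat 1 at 8.50 and the other silica rats at 10.96 and 10.57. Selenbp1, a selenium-binding oxidase of methanethiol, was at -1.19 (adjusted p = 0.051).

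The last pair, placed in no role, were Hspa12a, a distant Hsp70 relative, and Higd1b, a hypoxia-inducible family gene known from pericytes. The log2 signal of Hspa12a in the 3 rats of each group was 6.99, 6.84 and 6.95 (saline) and 4.22, 6.06 and 5.89 (silica) on day 14, then 7.17, 7.22 and 7.36 (saline) and 5.0, 5.77 and 5.87 (silica) on day 28. Hspa12a had a difference of -1.54 ± 0.45 on day 14 (adjusted p = 0.074) without overlap, lowest in silica rat 1. Saline rats of day 14 gave 8.06, 7.34 and 8.11 and silica rats 6.43, 7.36 and 7.02 for Higd1b, while the values of day 28 were 8.05, 8.29 and 8.21 with saline and 6.69, 7.09 and 7.14 with silica. Higd1b had a difference of -0.90 ± 0.30 (adjusted p = 0.1), and silica rat 2 overlapped with saline rat 2.

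More than 1 named probe was listed for 12 members, which gave 14 further probes. All 14 were below 0 on day 14 and 8 were called lower. The further probe of Gsta4 had a larger difference, -1.03 ± 0.28, and was not called (adjusted p = 0.06), so that the call of a member can depend on the probe.

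Across the 67 members the differences of day 14 and day 28 were related, with Spearman rho 0.66 and Pearson r 0.63. These are correlations across genes that share arrays and were chosen on one of the axes, and they are given as a description. For 57 of 67 members the difference was larger on day 28 than on day 14. Since the genes were selected on day 28 and the silica arrays of that day lay on another slide, no test of this was made. The saline mean of day 28 was above that of day 14 for 61 members.

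**Figure D3:**
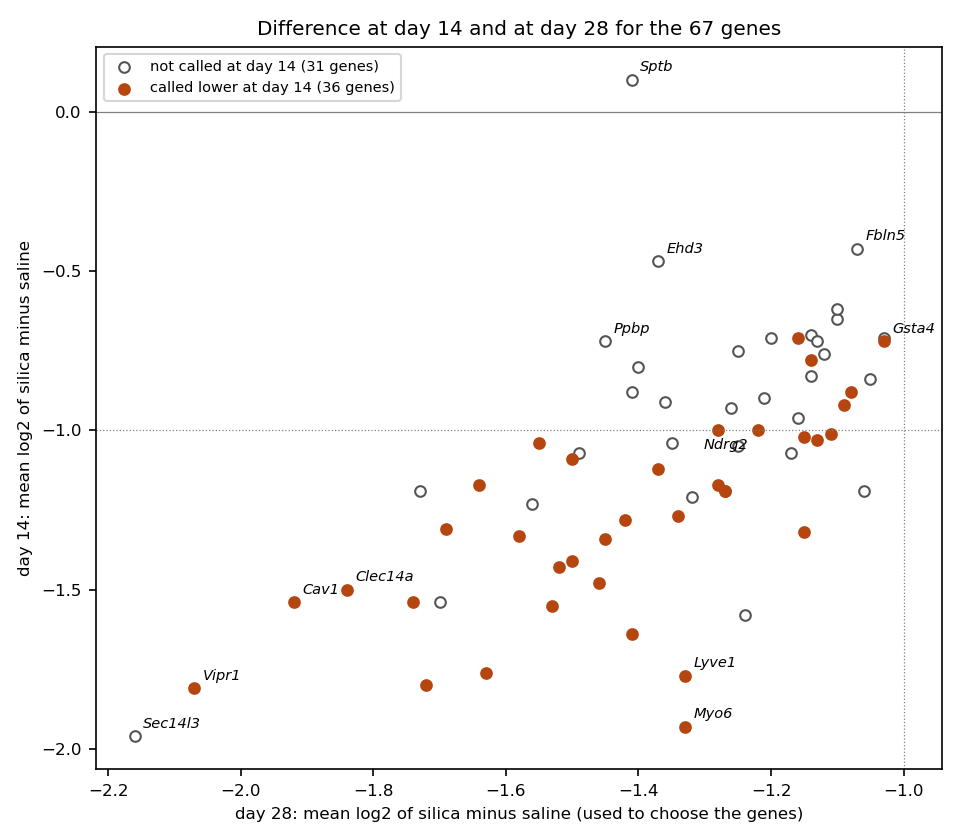
Mean log2 difference, silica minus saline, of the 67 genes on day 28 (horizontal axis, the contrast used to choose them) and on day 14 (vertical axis); filled points are the 36 genes called lower on day 14 and open points the 31 not called, and dotted lines mark a fold of 2. Sec14l3 is lowest on both days and Sptb is the only point above 0.

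Other named genes that were lower on day 28 were read on day 14 as well. Of 423 tested genes with no row in the list of called proteins, 194 were called lower (45.9%), with a median of -0.99, against 53.7% and -1.07 for the members. Of the 22 genes that were lower in both but set aside by name, 15 were called lower (68.2%), with a median of -1.13. In contrast, 54 of the 77 genes higher in both were called higher on day 14, and 0 lower, where 4.64% of all probes tested were higher. The difference between members and the other lower genes was not tested.

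Markers of cell types were read from lists of well-known genes, though only listed genes with a named probe, and hence a difference on day 28, could be used. Of 28 endothelial markers, 19 had a named probe and 6 of these were members. Of the 13 that were not, 10 fell on day 14, among them Cdh5 (-1.13), Tek (-1.45) and Plvap (-2.06), and 0 rose. Those 3 examples belong to the genes lower in both that were set aside by name, and all 13 were lower on day 28. Of all probes tested, 4.8% were called lower on day 14. The share was 45.9% for lower genes without a protein row and 68.2% for those set aside by name. Their mean log2 signal on day 14 ran from 11.01 to 11.25 in saline and from 9.32 to 10.34 in silica, lowest in silica rat 1. Among caveolar genes outside the members, Ptrf, the cavin that coats caveolae, fell by 0.89 (adjusted p = 0.02), and Sdpr was at -1.08 (adjusted p = 0.071). For smooth muscle, 5 of 12 markers were named and all 5 were members. Of 8 alveolar type 2 markers, 0 had a named probe, so nothing is given for that cell.

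Lists of epithelial cells, pericytes and blood cells had few named markers. Alveolar type 1 markers outside the members were Aqp5 (-0.93), Rtkn2 (-1.42) and Akap5 (-1.11) and 0 of 3 passed. Club cell markers were Cyp2f4 (-1.21) and Aldh1a1 (-1.53), ciliated cell markers Rsph1 (-0.36) and Cfap52 (-0.78), and pericyte markers Notch3 (-0.70) and Ndufa4l2 (-1.01), none of which passed. Of the markers on these lists that were members, Cav1 (alveolar type 1) and Tppp3 (ciliated) fell, and Clic5 (alveolar type 1), Cyp4b1 and Sec14l3 (club) and Higd1b (pericyte) were not called. The erythroid genes Hbb-b1 (-1.52, adjusted p = 0.041) and Hbe2 (-1.50, adjusted p = 0.033) fell, while Sptb, a member and the third named erythroid marker, was at 0.10 (adjusted p = 0.85). Ppbp, a member, was the only named platelet marker of 6. On day 28 the mean of Hbb-b1 and Hbe2 ran from 10.07 to 12.71 in silica and from 13.71 to 15.05 in saline, a description only.

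Markers of inflammatory and dividing cells moved the other way on the same arrays. Of 10 macrophage markers 9 were named, none a member, and 8 rose on day 14, Gpnmb by 3.97 and Trem2 by 4.25 on the log2 scale. The mean of the 9 was 8.77, 7.95 and 8.39 in saline rats 1, 2 and 3 of day 14 and 11.30, 10.59 and 10.66 in the silica rats, highest in silica rat 1, where the members were lowest. Of 2 named neutrophil markers out of 6, Lcn2 rose by 4.30 and Mmp9 was at 1.94 (adjusted p = 0.079). For lymphocytes 3 of 4 named markers rose, and for dividing cells all 8 of 8. Of all probes tested on day 14, 4.64% were called higher. The part of these cells in the members' lower signal was not tested.

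**Figure D4:**
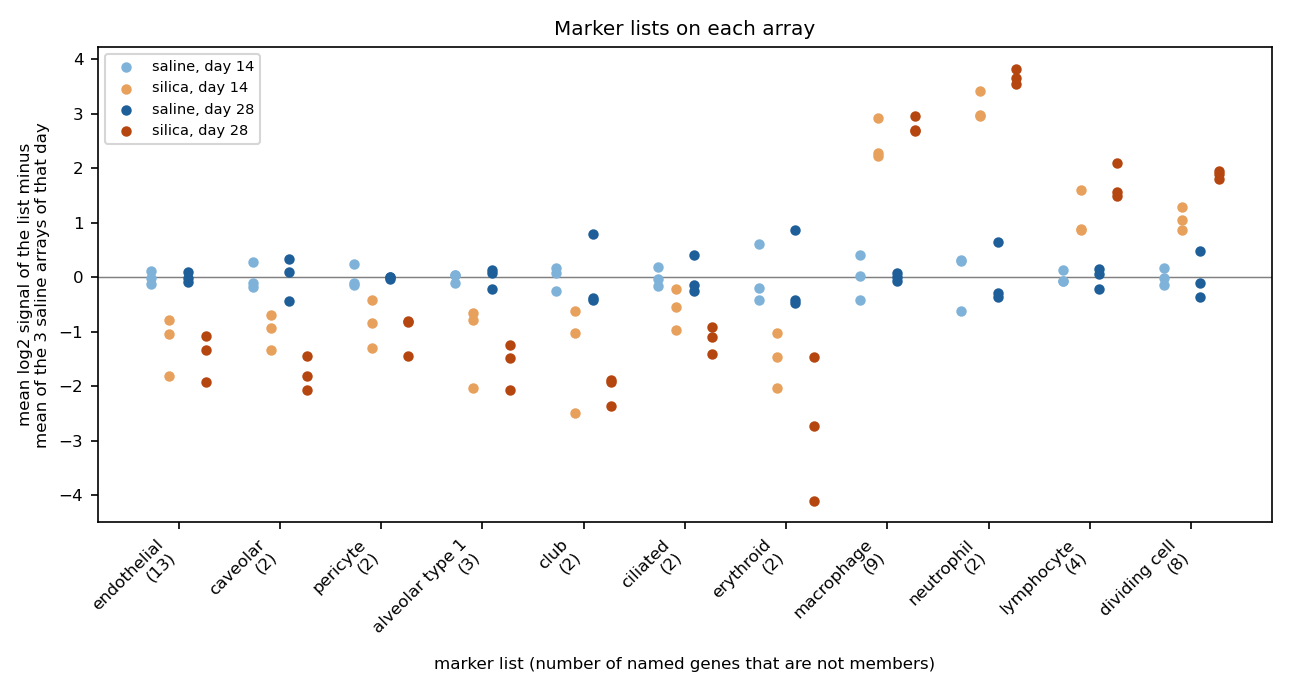
Mean log2 signal of each marker list (horizontal axis, number of named genes that are not members in brackets) on each of the 12 arrays, minus the mean of the 3 saline arrays of the same day; points are rats and colours are groups. Endothelial means in silica on day 14 were 9.32 to 10.34 against 11.01 to 11.25 in saline, and macrophage means 10.59 to 11.30 against 7.95 to 8.77.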

How the data were processed

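Lung RNA of 12 rats was read on 12 one-colour (Cy3) Agilent arrays. Per the file headers, the authors scanned each array and used Feature Extraction 10.7.1.1 to write spot intensities, corrected for background and not normalized between arrays. The authors also deposited log2 values, quantile normalized in GeneSpring per their methods, whose column medians were all 5.426; these were an alternative here. Processed intensities were averaged per probe on the log2 scale without 1439 control spots per array and outlier spots, which gave 51255 probes, and were quantile normalized over the 12 arrays.

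Arrays were grouped by the labels. Gene names came from the published probe list (1279 probes), whose columns of fold changes and p-values were not used. All 67 members matched a RefSeq gene, as did 1060 of the 1099 named genes. Of several named probes of a gene, the brightest over the 12 arrays was used. Members, roles and marker lists were chosen with earlier results of these data known, and the motifs after the data were seen. Silica and saline of day 14 were compared with limma 3.58.1 (R 4.3.3; lmFit, eBayes) on 33616 probes, each well above background in all 3 rats of silica, of saline or of both, with Benjamini-Hochberg adjustment and a threshold of 0.05 on the adjusted p. Single-gene values named are those of the 10 called members with the smallest p, the brightest and the most different member of each role, the paralogue pairs and both ends of day 28; the rest are given more briefly, and Sptb was added for its value. For 1 member the single values are not reported here, though it stays in all counts. The number of arrays limits the precision: in simulated data for this comparison, of 100 probes each changed by a log2 of 1 or 2, 36% and 80% were recovered, with 7 false calls. The simulation drew probes independently, with the same SD in both groups. In the data, silica rats spread more than saline rats and silica rat 1 was lowest for most members. The simulated shares may therefore not hold for the measured data. P-values set the difference between silica and saline against the spread between rats within groups. That spread is pooled over both groups and moderated over all probes tested. The alternatives tried were other scalings, background corrections, filters and fits, the authors' table, the methods' t-test and leaving out each array.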

Additional observations from a re-analysis of the deposited data

How the results depend on the processing

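The median difference of the members on day 14, -1.07, ran from -1.26 to -0.79 over the alternatives, and that of day 28, -1.33, from -1.47 to -1.09, each moving by less than the spread of the silica arrays (SD 0.50 and 0.41, n = 3). The comparison of day 28 with only the saline arrays of the other slide was added after seeing the data and gave -1.32. No difference of the 34 members named by rule changed sign on day 14.

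Counts of calls depended on the processing. The 36 members and 3174 probes called on day 14, or 30 and 1678 with a fold of at least 2, became 3 and 625, or 2 and 454, when dim probes were kept. One fit over the 4 groups called 5269 probes, and normexp background correction left 703 probes with a fold of at least 2. The methods' t-test called 7903 probes and 47 members at an unadjusted p under the threshold, and after Benjamini-Hochberg adjustment 5 probes and 0 members, or 1 probe and 0 members with a fold of at least 2. Leaving out each array in turn gave from 2 to 46 members and from 382 to 3648 probes, or from 1 to 40 members and from 371 to 2369 probes with a fold of at least 2. The cause was not tested, apart from the fewer arrays that leaving one out brings by construction. Of 509 results for single named members under the alternatives, 381 kept their side of the threshold, 103 lost the call, 25 gained it and 0 changed direction.

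Replicate numbers are shared by both groups of day 14. Deviations of arrays with the same number correlated at 0.024, -0.17 and 0.063, so the numbers were not taken as pairs. With the replicate block, 26 members were called, 25 of them among the 36, and 2123 probes in all. With 3 rats a group and a self-test that recovered 36% of changes of 1 log2 unit, a member that was not called is not shown to be unchanged.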
